A study of Mus musculus with 9 samples.

Results

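Nuclei with transcripts of both Enpp6 and Bcas1 were examined in single-nucleus RNA sequencing of the cortex and hippocampus of young and aged mice that had received an AAV in the brain endothelium. A nucleus was taken as a member when it held at least 2 unique molecular identifiers (UMIs, counted RNA molecules) of Enpp6, at least 2 of Bcas1, at most 1 of the precursor gene Pdgfra, and 0 of each of the excitatory neuron gene Slc17a7, the inhibitory neuron genes Gad1 and Gad2, and the endothelial gene Flt1. In all, 453 of the 74895 nuclei with 200 to 5000 genes and at most 10% mitochondrial UMIs met this rule, or 0.605%. Of 627 nuclei with 2 or more UMIs of both Enpp6 and Bcas1, 17 were left out by Pdgfra and 157 by the neuronal and endothelial genes. The 9 mice were male, wild-type C57BL/6, and each gave 1 library from the pooled cortex and hippocampus of a frozen hemisphere, from nuclei sorted as DNA-stained singlets. They formed 3 groups of 3: young mice (5 months) with AAV-EGFP, aged mice (19 months) with AAV-EGFP, and aged mice (19 months) with AAV-B3GNT3. B3GNT3 is a glycosyltransferase that lengthens O-linked sugar chains of mucins. By the study's methods, young mice came from Jackson Laboratories and aged mice from the National Institute on Aging colony, so age and supplier cannot be told apart. All 9 mice, controls included, carried a virus with the AAV-PHP.V1 capsid and an endothelial sCLDN5 promoter for 8 weeks, so no mouse without virus was compared, and the oligodendrocytes were not the cells in which the promoter is meant to act.

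Oligodendrocytes arise throughout life from precursors that divide, commit, and leave the cell cycle to become newly formed oligodendrocytes, which reach out to axons and either begin to wrap them or die. Enpp6, a choline-specific glycerophosphodiesterase, and Bcas1, a protein of early myelinating cells, are known as genes of this short stage, and so are Tcf7l2, a transcription factor of the Wnt pathway, and the long noncoding RNA 9630013A20Rik. Mature oligodendrocytes maintain myelin with proteins such as Mbp, Mog and Mobp, and formation of new oligodendrocytes is known to slow with age in the rodent brain.

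The promoters of 3 genes of the newly formed stage are shown. Enpp6 is a gene of the rule, and Tcf7l2 and 9630013A20Rik are among the 26 listed genes that divided the members into the portions described below. Enpp6 lies at chr8:46986887-47096762 on the plus strand of GRCm38, Tcf7l2 at chr19:55741820-55933654 on the plus strand, and 9630013A20Rik, annotated as antisense, at chr14:84458639-84476424 on the minus strand. Bcas1 lies at chr2:170346991-170427845 on the minus strand and Pdgfra at chr5:75152292-75198215 on the plus strand. The 250 bases before the RefSeq start sites (GRCm38.p6) are printed 5′ to 3′ on each gene's own strand, from chr8:46986637-46986886, from the more upstream Tcf7l2 start at chr19:55741560-55741809, and from chr14:84476425-84476674. Capitals mark the letters ACAAAG or ACAATG on either strand, which SOX factors such as the lineage regulator Sox10 can bind.
Enpp6: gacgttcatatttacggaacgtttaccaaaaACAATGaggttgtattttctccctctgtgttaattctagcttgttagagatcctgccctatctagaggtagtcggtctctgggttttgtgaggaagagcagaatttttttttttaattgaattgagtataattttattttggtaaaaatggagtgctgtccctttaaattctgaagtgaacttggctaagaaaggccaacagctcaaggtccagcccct
Tcf7l2: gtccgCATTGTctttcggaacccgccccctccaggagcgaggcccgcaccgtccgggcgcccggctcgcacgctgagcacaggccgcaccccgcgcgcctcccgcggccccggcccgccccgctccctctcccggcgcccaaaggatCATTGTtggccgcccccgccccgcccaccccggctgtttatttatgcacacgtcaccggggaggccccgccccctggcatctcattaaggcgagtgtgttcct
9630013A20Rik: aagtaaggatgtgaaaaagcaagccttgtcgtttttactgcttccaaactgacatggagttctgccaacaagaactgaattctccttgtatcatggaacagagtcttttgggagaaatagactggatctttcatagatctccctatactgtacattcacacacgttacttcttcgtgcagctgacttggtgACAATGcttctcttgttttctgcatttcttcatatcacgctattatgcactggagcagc
Each of these windows held such letters, as did 25.2% of all 32851 promoter windows of that length. Of 26 newly formed oligodendrocyte genes fixed as a list, 23 had windows in the table, and 13 of their 33 windows (39.4%) held the SOX letters. The letters TCAAAG, bound by TCF factors such as Tcf7l2 and searched on both strands, were in none of the windows shown, in 1 of the 33 list windows (3.03%) and in 13.8% of all windows. Of the SOX letters, ACAAAG shares the run CAAAG with the TCF letters but cannot match at the same place, and the matches marked above are all ACAATG or its complement. These are matches of letters and not measured binding.

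The libraries held 47332047 to 79964605 UMIs each, and the members' UMIs summed to between 116426 and 340647 per library. Clustering of all kept nuclei gave 28 clusters, of which a cluster of 20509 nuclei carried all 7 mature oligodendrocyte markers and a cluster of 2362 carried all 6 precursor markers. Oligodendrocyte-lineage nuclei, 22953 in all, were those of both clusters plus members found elsewhere. Libraries shared 6 to 35 cell barcodes per pair over 36 pairs, and no barcode of a member was shared. Marked as likely doublets were 35 members (7.73%), against 0.958% of the other mature and 0.169% of the other precursor nuclei.

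The label of newly forming oligodendrocytes held for a minority of the members. By cluster, 369 of the 453 lay with the mature oligodendrocytes, 2 with the precursors, 50 in an unnamed cluster of 897 nuclei led by Bcas1, Lhfpl3, Vcan and Sox6, and 32 elsewhere, 18 of these in an unnamed cluster of 913 nuclei that mixed microglial and oligodendrocyte genes. In the cluster of 897 nuclei, 53.4% were marked as likely doublets. Tcf7l2, which the rule did not use, was detected in 32.7% of members, against 14.4% of the other mature nuclei and 43.3% of precursors. The members are therefore named here by their rule.

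Enpp6 chose the members, so its level is a description. Scaled to the members' own UMI totals (CPM, unadjusted library totals), Enpp6 was at 825, 720.3 and 585 CPM in the young AAV-EGFP libraries, 654, 617 and 869 CPM in the aged AAV-EGFP libraries, and 739, 782 and 578 CPM in the aged AAV-B3GNT3 libraries. These ranges overlapped. In pooled UMIs Enpp6 stood at 68.0 CPM in the other mature nuclei and 1.65 CPM in precursors. Bcas1, also of the rule, ranged from 1108 to 2211 CPM in members, against pooled values of 663 CPM in mature nuclei and 469 CPM in precursors. At least 1 UMI of Enpp6 was found in 12.9% of mature-cluster nuclei (median depth 2004 UMIs), and in cells that should lack it in 0.744% of astrocyte-cluster nuclei (2975 UMIs) and 0.601% of microglia-cluster nuclei (1676 UMIs). Precursor nuclei were near those 2 values, with 0.762% at a median depth of 4094.5 UMIs. At 2 or more UMIs the shares were 3.93% of mature-cluster, 0.127% of precursor-cluster and 0.0473% of astrocyte-cluster nuclei, and 0 of 2162 microglia-cluster nuclei.

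The members fell apart by a measure that the rule did not use, the share of a nucleus's UMIs on the 26 newly formed oligodendrocyte genes, Tcf7l2 among them and none of them in the rule. Of 453 nuclei, 389 lay below 0.5%, 11 between 0.5% and 0.75%, 1 between 0.75% and 1%, 7 between 1% and 1.5%, 8 between 1.5% and 2%, 12 between 2% and 4%, and 25 at 4% or above. A line at 1%, set after these values were seen, left 52 members above it (11.5%, the list-high nuclei) and 401 below it (the list-low nuclei). Of the list-high nuclei 41 lay in the unnamed Bcas1-led cluster, 7 in the mature and 2 in the precursor cluster, while 362 of the list-low nuclei (90.3%) lay in the mature cluster. Likely doublets made up 5 of the 52, and the mean doublet score was 0.656 in list-high nuclei, 0.399 in list-low nuclei, 0.187 in the other mature nuclei and 0.109 in the other precursors; the part of doublets in the list-high profile was not tested. Because the line was drawn on these genes, all values of the portions are given with no test.

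**Figure D1:**
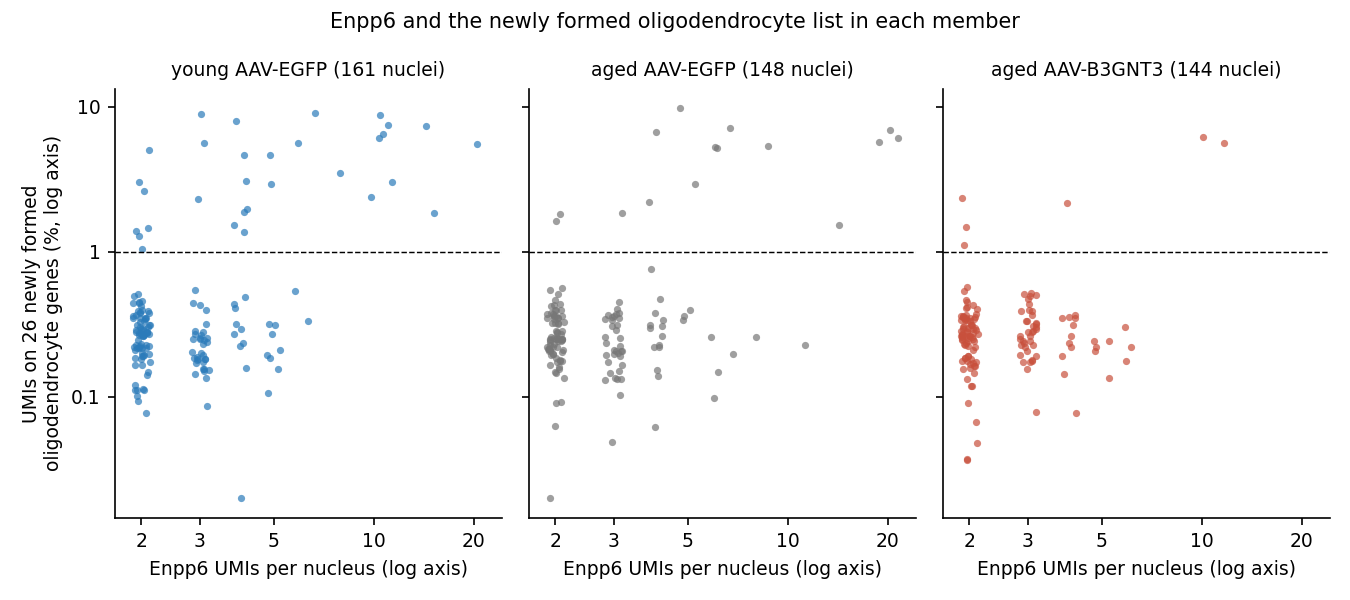
Each point is 1 of the 453 members, with its Enpp6 UMIs on the horizontal log axis (spread sideways at whole numbers) and the percent of its UMIs on 26 newly formed oligodendrocyte genes on the vertical log axis, by group; members at 0 are drawn at 0.02. Most points lie below the line at 1%, and of the 16 members with 10 or more Enpp6 UMIs 15 lie above it.

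List-high nuclei were more frequent at high Enpp6 counts. They were 12 of 244 members with exactly 2 Enpp6 UMIs (4.92%), 4 of 111 with 3 (3.60%), 21 of 82 with 4 to 9 (25.6%) and 15 of 16 with 10 or more (93.8%). Depth moved with it, since the median nucleus had 3279 UMIs at 2 Enpp6 UMIs and 7683.5 at 10 or more, and its part was not tested. Just outside the rule, 742 nuclei with 1 Enpp6 UMI that met every other condition included 12 list-high nuclei, and 88.9% of them lay in the mature cluster, against 86.9% of the 244 just inside. For Bcas1 the 158 members with 2 UMIs held 0 list-high nuclei and the 169 nuclei with 1 UMI held 1. For Pdgfra, 2 of 9 members with 1 UMI were list-high, and so was 1 of 2 nuclei with 2 UMIs.

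Stage genes of newly formed cells were high in the list-high nuclei, which was fixed by the line drawn on them. Pooled over the 9 libraries, Tcf7l2 stood at 2727 CPM in list-high and 91.1 CPM in list-low nuclei, and was detected in 94.2% and 24.7% of them. The noncoding RNA 9630013A20Rik was at 1288 CPM and 5.92 CPM, detected in 92.3% of list-high nuclei, with only 10 UMIs in all list-low nuclei. Frmd4a, a scaffold of cell polarity, was at 15431 and 329 CPM, Itpr2, a calcium channel of the endoplasmic reticulum, at 2306 and 50.9 CPM, and the kinase Fyn, which acts in myelin initiation, at 5558 and 180.5 CPM. In the other mature nuclei Tcf7l2 was at 93.9, 9630013A20Rik at 15.8, Frmd4a at 286.5, Itpr2 at 32.0 and Fyn at 186 CPM, each far below its list-high level. Summed, the 26 genes reached 42869 CPM in list-high and 2709 CPM in list-low nuclei, 3137 CPM in the other mature nuclei and 3119.6 CPM in precursors.

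Genes of earlier stages were also higher in the list-high nuclei, in which the doublet score was high as given above. Committed precursor genes such as Gpr17, a receptor that marks cells about to differentiate (126 against 1.78 CPM), Bmp4, a secreted differentiation signal (153 against 1.18 CPM), and Neu4, a sialidase (270 against 4.14 CPM), were higher there, and Gpr17 was detected in 42.3% of list-high nuclei. Summed, 14 committed precursor genes stood at 8382 CPM in list-high nuclei, 712 CPM in list-low nuclei, 12718 CPM in precursors and 834 CPM in the other mature nuclei. Of 15 precursor genes 14 were higher in list-high nuclei, led by the extracellular matrix protein Tnr (14057 against 179 CPM) and the chondroitin sulfate proteoglycan Vcan (819 against 26.6 CPM). Over all 11081 genes with at least 10 UMIs, 42.6% were higher in list-high nuclei, with a median log2 ratio of -0.17. The median log2 ratio was 4.05 for the committed, 3.85 for the newly formed and 2.96 for the precursor genes.

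Myelin genes divided. Mbp stood at 2291 CPM in list-high and 2872 CPM in list-low nuclei, against 61.3 CPM in precursors. Late myelin genes were far lower in list-high nuclei, with Mog at 113 against 845 CPM, Mobp at 196 against 1430 CPM, Opalin at 6.13 against 169 CPM, the septin partner Anln at 21.5 against 865 CPM and the lipid carrier Apod at 18.4 against 818 CPM. In all 1 of 24 mature myelin genes was higher in list-high nuclei, and their sum was 14053 CPM there, 26633 CPM in list-low and 25738 CPM in the other mature nuclei. Myrf, the master regulator of myelin genes, was at 181 CPM in list-high and 180.5 CPM in list-low nuclei, while Sox6, which holds precursors back, was at 2586 and 69.8 CPM and Nkx2-2 at 181 and 17.8 CPM. The list-low nuclei thus carried the late myelin genes at mature levels, with Mog at 845 CPM against 782 CPM in the other mature nuclei.

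**Figure D2:**
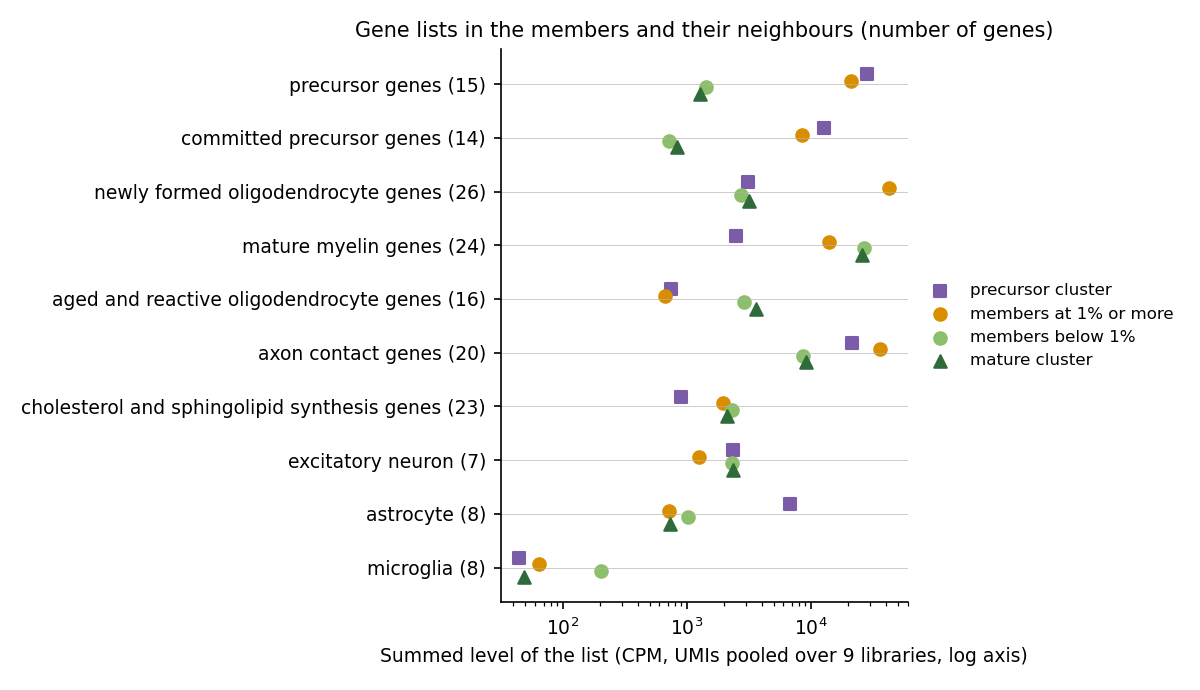
Each row is a gene list (number of genes not in the rule in brackets) and each point its summed level in pooled UMIs of the 9 libraries, in CPM on a log axis, for precursors, list-high members, list-low members and other mature nuclei. The list-high members sit apart at 42869 CPM on the newly formed list, which drew the line, and the list-low members lie beside the mature nuclei on most lists.

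The other lists differed less evenly between the portions. Cytoskeletal genes of process outgrowth summed to 19553 CPM in list-high and 9403 CPM in list-low nuclei. Of these 12 of 22 were higher in list-high nuclei, with a median log2 ratio of 0.23. Among them were the microtubule protein Map1b at 1715 against 160.4 CPM, the tubulin deacetylase Sirt2 at 828 against 104 CPM and the focal adhesion protein Tns3 at 3377 against 183 CPM. Tns3, Fyn, Cyfip2 and Parvb of this list are also among the 26 genes that drew the line, so part of its difference was fixed by the line. Axon contact genes summed to 35897 and 8662 CPM, with 15 of 20 higher in list-high nuclei. Nfasc of these, and Elovl7 of the lipid genes below, are also among the 26 genes, and Tnr was counted above as a precursor gene. Cholesterol and sphingolipid synthesis genes were at 1945 and 2311 CPM (11 of 23 higher in list-high nuclei) and at 904 CPM in precursors, and glutamate receptor genes at 7097 and 6368 CPM (9 of 17 higher). Cell cycle genes were low in both, at 64.4 and 89.4 CPM against 177 CPM in precursors, and 7 of the 20 were not seen in any member. Of the Wnt effector genes other than Tcf7l2, the feedback target Axin2 was at 18.4 CPM (list-high) and 8.88 CPM (list-low). Of the whole list 6 of 15 genes were higher in list-high nuclei, Tcf7l2 among them. Genes of aged and reactive oligodendrocytes summed to 666 CPM in list-high, 2899 CPM in list-low and 3570.1 CPM in the other mature nuclei, with the alarmin Il33 at 9.20, 330.2 and 594 CPM.

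Markers of other cells were present in members. The 8 microglial markers of the list were all higher in members than in the other mature nuclei, with summed levels of 182 and 48.8 CPM, a range of 42.9 to 479 CPM over the 9 libraries, and 204.7 CPM in list-low against 64.4 CPM in list-high nuclei. The 8 astrocyte markers summed to 980 CPM in members and 726 CPM in mature nuclei, and the 7 excitatory markers outside the rule to 2125 and 2370 CPM, and the 6 inhibitory markers outside the rule to 1645 and 2341 CPM. The 6 endothelial markers outside the rule were at 22.3 and 13.1 CPM. In precursors the astrocyte, excitatory and inhibitory sums were 6790, 2352 and 7106 CPM. List-high and list-low nuclei were at 721 and 1030 CPM for the astrocyte, 1248 and 2294 CPM for the excitatory, and 3322 and 1321 CPM for the inhibitory markers. The part of these markers in the members' profile was not tested.

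By the naming rule, 63 genes were detected in at least 25% of members and higher in members than in both precursors and mature nuclei in all 9 libraries. The 20 with the highest ratio included Enpp6 and Bcas1, whose place there was fixed by the rule, and the others were Cnksr3, Epb41l2, 9530059O14Rik, Map1b, Tspan9, Aven, Mpzl1, Chn2, Cntn3, Mob3b, Agmo, Rapgef5, Sirt2, Aim2, Nedd4l, Gpd2, Efr3b and Ankrd44. Both portions contributed to this list. Cnksr3, a scaffold of Ras signalling, was at 1150.2 CPM in list-high and 68.1 CPM in list-low nuclei, and Epb41l2, a membrane skeleton protein, at 2576 and 294 CPM. The adhesion protein Cntn3 was the other way round, at 79.7 and 469 CPM, as were the ether lipid enzyme Agmo at 3.07 and 320 CPM and the DNA sensor Aim2 at 12.3 and 130.2 CPM. In the other mature nuclei Cntn3 was at 179 CPM, Agmo at 127 CPM and Aim2 at 57.7 CPM, below the list-low nuclei. This was fixed by the naming rule, which asked for genes higher in members than in mature nuclei, because 401 of the 453 members were list-low. The median depth of list-low nuclei was also higher than that of the other mature nuclei, at 3557 UMIs against 1989 UMIs.

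The first comparison asked whether the number of members changed with age or with AAV-B3GNT3. Members numbered 83, 46 and 32 in the young AAV-EGFP libraries, 49, 41 and 58 in the aged AAV-EGFP libraries, and 38, 34 and 72 in the aged AAV-B3GNT3 libraries. As a share of lineage nuclei they were 3.10% (95% exact binomial interval 2.48% to 3.83%), 2.07% (1.52% to 2.76%) and 2.11% (1.45% to 2.97%) in young AAV-EGFP mice. The shares were 2.26% (1.68% to 2.98%), 1.37% (0.988% to 1.86%) and 1.97% (1.4998% to 2.54%) in aged AAV-EGFP mice, and 1.74% (1.23% to 2.38%), 1.08% (0.751% to 1.51%) and 2.31% (1.81% to 2.90%) in aged AAV-B3GNT3 mice. The groups overlapped, with means of 2.43% ± 0.581 (SD, n = 3), 1.87% ± 0.452 (SD, n = 3) and 1.71% ± 0.613 (SD, n = 3).

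No difference in the share passed its test. Over the 3 groups the exact permutation test of F (1.40) gave p = 0.368 (280 partitions). The difference of aged from young AAV-EGFP was -0.560 percentage points (two-sided exact permutation p = 0.4) and that of AAV-B3GNT3 from AAV-EGFP in aged mice -0.159 points (exact permutation p = 0.8); with 3 against 3 the smallest possible p is 0.1. Young mice exceeded the 6 aged mice of both viruses, a comparison that mixes age with virus, by 0.639 points (exact permutation p = 0.155, 84 splits, smallest possible 0.0119). Members per 100 precursors were 39.0, 14.0 and 18.1 in young AAV-EGFP, 23.0, 10.9 and 20.8 in aged AAV-EGFP and 23.6, 11.8 and 22.4 in aged AAV-B3GNT3 libraries, a young excess of 4.94 (exact permutation p = 0.476). Adjusted over these 5 tests, the permutation p-values were 0.595, 0.595, 0.8, 0.595 and 0.595. When every lineage nucleus was thinned to 2000 UMIs, leaving out 357 to 1925 shallower nuclei per library, the mean shares were 1.35%, 1.47% and 0.910% in the same order.

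The composition of the members differed in number between groups. List-high nuclei numbered 13, 13 and 5 in young AAV-EGFP, 5, 4 and 6 in aged AAV-EGFP, and 1, 1 and 4 in aged AAV-B3GNT3 libraries. They made up 15.7%, 28.3% and 15.6% of members in young AAV-EGFP mice, 10.2%, 9.76% and 10.3% in aged AAV-EGFP mice, and 2.63%, 2.94% and 5.56% in aged AAV-B3GNT3 mice. Of lineage nuclei they were 0.467% ± 0.129 (SD, n = 3), 0.190% ± 0.0499 (SD, n = 3) and 0.0686% ± 0.0521 (SD, n = 3), and the 3 groups did not overlap. With the line at 1.5% the counts were 13, 10 and 3, then 5, 4 and 6, then 1, 0 and 3, and young replicate 3 (0.198% of lineage nuclei) lay within the aged AAV-EGFP range of 0.134% to 0.231%. The line at 1% was set after the values were seen and the portion was chosen from these nuclei, so no test is given, and each library rests on 1 to 13 nuclei.

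When nuclei above 1% that the rule left out were added, the aged groups overlapped. Of lineage nuclei and the unnamed Bcas1-led cluster together, 130 were above 1%, of which 78 were not members. Of the 78, 58 had fewer than 2 Enpp6 UMIs and 25 held UMIs of the excluded neuronal or endothelial genes, 17 of these left out by those genes alone. In the Bcas1-led cluster 53.4% were marked as likely doublets, and 232 of its 897 nuclei came from young replicate 2. The part of doublets in these shares was not tested. All nuclei above 1% made up 0.989%, 1.15% and 0.766% in young AAV-EGFP, 0.352%, 0.354% and 0.435% in aged AAV-EGFP, and 0.360%, 0.430% and 0.280% in aged AAV-B3GNT3 libraries. The young libraries lay above all aged libraries, and the 2 aged groups overlapped.

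**Figure D3:**
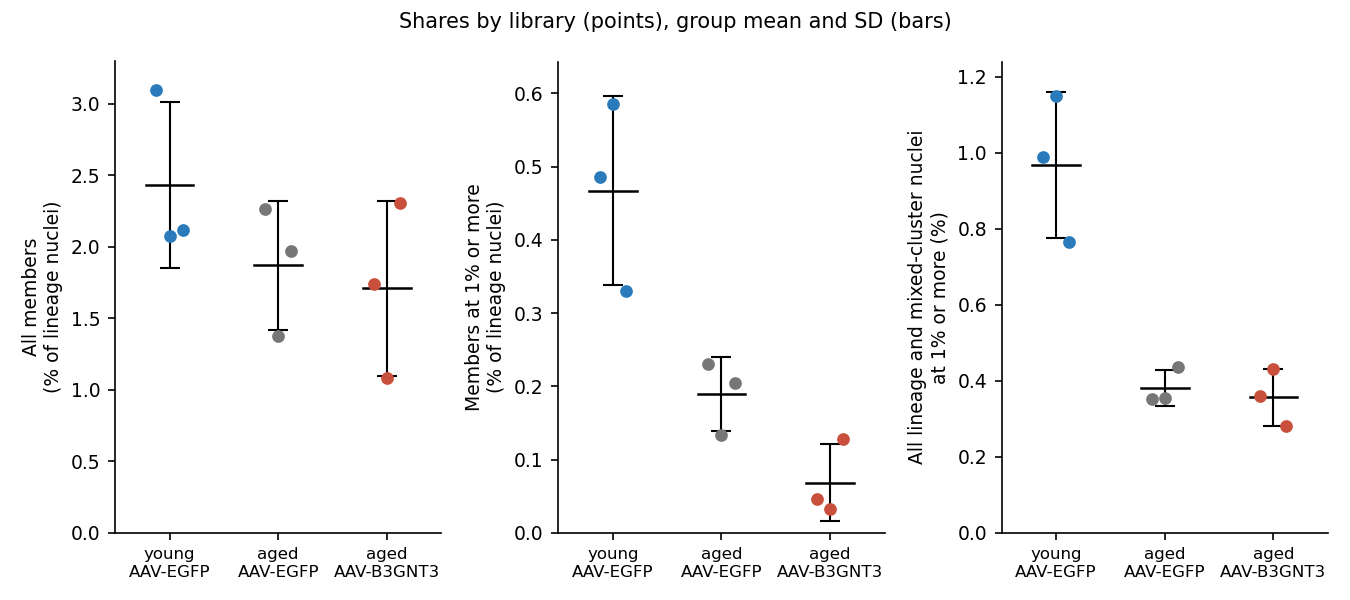
Points are libraries, 3 per group, and bars show the mean and SD; the panels give members as a percent of lineage nuclei, and the nuclei above 1% on the newly formed list. The member shares overlap between the groups (means 2.43%, 1.87% and 1.71%), while the list-high members average 0.467%, 0.190% and 0.0686%.

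Gene levels within the members were then compared between groups from the members' summed UMIs, with edgeR's quasi-likelihood test over 4640 genes and Benjamini-Hochberg adjustment, and CPM on TMM-scaled totals. A sum over nuclei cannot tell fewer nuclei of a kind from less RNA per nucleus. With age, comparing AAV-EGFP mice, 22 genes passed (0.474% of those tested), 14 higher (0.302%) and 8 lower (0.172%) in aged mice, and 589 had an unadjusted p under 0.05. With likely doublets removed 103 genes passed, 40 higher and 63 lower, and with mature-cluster members only 117 passed, 36 higher and 81 lower, so the balance of directions changed with the setting. The transcript 9330111N05Rik, a leading gene of the mature cluster, was at 244, 239 and 404 CPM in young and 1268, 1161 and 1198 CPM in aged AAV-EGFP libraries. All aged libraries were above all young ones, with a log2 change of 2.06 ± 0.28 (SE, edgeR adjusted p = 0.0015). Groups that do not overlap were a condition for naming a gene, and 17.4% of all tested genes met it in this comparison. Fth1, the ferritin heavy chain that stores iron, was at 168, 145 and 191 CPM in young and 508, 530.4 and 792 CPM in aged AAV-EGFP libraries (log2 change 1.87, edgeR adjusted p = 0.0029). Il33 was at 158, 117 and 139.5 CPM in young and 367, 477 and 392 CPM in aged AAV-EGFP libraries (log2 change 1.56 ± 0.26, edgeR adjusted p = 0.014). Il33 passed in 10 of 14 alternatives. It did not pass without young replicate 2 or 3 or aged AAV-EGFP replicate 2 (edgeR adjusted p of 0.058 to 0.145). With at least 1 UMI of Enpp6 and Bcas1 its log2 change was 0.83 (edgeR adjusted p = 0.073). Efemp1, Galnt5, Gm10701, Tnni1, Ppia, Tmod1 and Palm2 rose by log2 1.45 to 2.23. Of 14 alternatives, Tnni1 passed in 11, Tmod1 in 10, Gm10701 in 8, Efemp1, Galnt5 and Palm2 in 6 and Ppia in 5, with a positive estimate in each. With a replicate block, Efemp1, Gm10701, Ppia and Palm2 did not pass (edgeR adjusted p of 0.056 to 0.081), nor did Efemp1, Galnt5, Gm10701, Ppia and Tmod1 in DESeq2 (adjusted p of 0.050 to 0.27).

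Among the genes that fell with age, Pdzrn3, a ubiquitin ligase, was at 142, 122 and 169 CPM in young and 25.2, 5.89 and 9.11 CPM in aged AAV-EGFP libraries. Its log2 change was -3.33 (edgeR adjusted p = 0.0015). Pdzrn3 is also a leading gene of a cluster of 9124 excitatory neuron nuclei, fell below the filter when likely doublets were left out, and its log2 change was -1.30 with at least 1 UMI of Enpp6 and Bcas1; the part of neuronal RNA was not tested. Ptprj, a receptor tyrosine phosphatase, was at 1048, 1960.0 and 977 CPM in young and 292, 583 and 597 CPM in aged libraries (log2 -1.44, edgeR adjusted p = 0.034), and Luzp2 fell by 1.23 on the log2 scale. Slc4a4, the bicarbonate transporter of astrocytes, was at 132, 154 and 228 CPM in young and 15.1, 5.89 and 50.1 CPM in aged AAV-EGFP libraries (log2 -2.69, edgeR adjusted p = 0.017). Slc4a4 fell below the filter with likely doublets removed and with mature-cluster members only, and it did not pass without young replicate 2 or 3 or aged AAV-EGFP replicate 2, or with at least 1 UMI of Enpp6 and Bcas1 (edgeR adjusted p of 0.057 to 0.071, log2 -1.15 in the last). Trpm3, Ntrk2 and the chaperone Hsph1 changed by log2 -2.51, -1.92 and -2.01. Of 14 alternatives these passed in 7, 8 and 7, and Ptprj and Luzp2 in 9 and 8. With at least 1 UMI of Enpp6 and Bcas1, Trpm3 was at log2 -1.05, Ntrk2 at -1.17 and Luzp2 at -0.74 (edgeR adjusted p = 0.16, 0.054 and 0.20), and Ptprj was at -0.58 without list-high nuclei (edgeR adjusted p = 0.54). Trpm3 did not pass with a replicate block (edgeR adjusted p = 0.066), and Hsph1 not in DESeq2 (adjusted p = 0.093). Beside Slc4a4 and Ntrk2, both known from astrocytes, the 8 astrocyte markers summed to 1218, 1445 and 1690 CPM in the members of young AAV-EGFP mice, 684, 484 and 469.5 CPM in aged AAV-EGFP mice and 732, 2259 and 632 CPM in aged AAV-B3GNT3 mice, and in the other mature nuclei to 887 ± 261, 454 ± 93.6 and 806 ± 242 CPM (SD, n = 3). Their part in these changes was not tested. The count of 22 genes became 2 without young AAV-EGFP replicate 2, 4 without young replicate 3, and 49, 5 and 10 without aged AAV-EGFP replicates 1, 2 and 3; 9330111N05Rik and Pdzrn3 passed in each of these fits, and Fth1 missed once, without young replicate 2.

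AAV-B3GNT3 against AAV-EGFP in aged mice, which shares the aged AAV-EGFP libraries with the age comparison, gave 4 genes (0.0862% of 4640), 0 higher and 4 lower in edgeR, with 464 at an unadjusted p under 0.05, and 33 in DESeq2, 1 of them higher. Fth1 was at 508, 530.4 and 792 CPM with AAV-EGFP and 120.1, 166 and 253 CPM with AAV-B3GNT3 (log2 -1.70, edgeR adjusted p = 0.015). Against the young range of 145 to 191 CPM, the AAV-B3GNT3 libraries lay below (120.1), inside (166) and above it (253). Fth1 also led a cluster of 636 shallow nuclei (median 601.5 UMIs) with other abundant transcripts such as Actb and Mbp, and the part of free RNA in its levels was not tested. Fam155a, a subunit of the sodium leak channel, was at 1072, 2416 and 1348 CPM against 547, 599 and 325 CPM (log2 -1.74, edgeR adjusted p = 0.015). Frmpd4 and the phosphodiesterase Pde4d changed by log2 -1.53 and -1.28. Of the 4 genes, Fth1 alone still passed with likely doublets removed: Fam155a (log2 -0.97) and Pde4d (-0.77) had an edgeR adjusted p = 0.28. Frmpd4 turned to log2 0.60 (edgeR adjusted p = 0.55). With mature-cluster members only, Frmpd4 was at 1.28 and Pde4d at 0.29, and 24 genes passed, 16 higher and 8 lower. The count was 36, 2 and 0 without aged AAV-EGFP replicates 1, 2 and 3 (506 at unadjusted p under 0.05 in the last edgeR fit), and 0, 0 and 1 without aged AAV-B3GNT3 replicates 1, 2 and 3 (377, 411 and 507 unadjusted).

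Young mice against all 6 aged mice gave 135 genes (2.91%), 95 higher (2.05%) and 40 lower (0.862%) in young members. The aged mice included those with AAV-B3GNT3, which no young mouse carried, so this comparison mixes age with virus. Sox6 was at 577, 1314 and 1014 CPM in young AAV-EGFP, 372, 489 and 428 CPM in aged AAV-EGFP, and 167, 101 and 274 CPM in aged AAV-B3GNT3 libraries. The young libraries were above all aged ones (log2 1.74 ± 0.25, edgeR adjusted p = 0.0013). Such separation was a condition for naming, and 6.44% of all tested genes had it in this comparison. Also higher in young were Pdzrn3 (log2 2.42), Slc4a4 (2.26), Eps8 (2.29), Fam19a2 (1.92), D630045J12Rik (1.78), Ptprj (1.72), Tox3 (1.70), Neto1 (1.62) and Camk4 (1.61). Lower in young were 9330111N05Rik (log2 -2.07), Il33 (-1.54), Gm816 (-1.68), Efemp1 (-2.28), Gm10701 (-1.91), Tnni1 (-1.78), Gas2 (-1.65), Tmod1 (-1.63), Eya4 (-1.61) and Nap1l5 (-1.55). Of these named genes, Sox6, Eps8, Fam19a2, D630045J12Rik, Tox3, Neto1, Camk4, Gm816, Gas2, Eya4 and Nap1l5 did not pass the age comparison of AAV-EGFP mice (edgeR adjusted p of 0.055 to 0.21). The others did. With at least 1 UMI of Enpp6 and Bcas1, Fam19a2 (log2 0.63), Camk4 (0.60), Tox3 (1.18), Eps8 (1.79) and Il33 (-0.71) did not pass (edgeR adjusted p of 0.067 to 0.35). Fam19a2 did not pass with likely doublets removed (log2 1.15, edgeR adjusted p = 0.056). Gm816 was at 175, 84.2 and 66.1 CPM in young AAV-EGFP, 262, 283 and 196 CPM in aged AAV-EGFP, and 621, 525 and 527 CPM in aged AAV-B3GNT3 libraries. The count became 10 without young replicate 2, 224 without aged AAV-EGFP replicate 1, and 75 and 51 without aged AAV-B3GNT3 replicates 1 and 3.

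The comparisons were repeated on list-low nuclei alone. Without the 52 list-high nuclei, 10 of 3693 genes passed for young against aged (0.271%), 14 with age (0.379%) and 6 with AAV-B3GNT3 (0.162%). In that fit Sox6 and Ptprj no longer passed in the young comparison (edgeR adjusted p = 0.34 and 0.55), with log2 values of 1.19 and 0.47, while 9330111N05Rik, Pdzrn3, Slc4a4 and Il33 did. Other genes no longer passed at a log2 value close to the earlier one, such as Gm10701 at -1.98, Tnni1 at -1.61 and Camk4 at 1.33 (edgeR adjusted p = 0.061, 0.054 and 0.072), so the lower count does not by itself show which nuclei carried these changes. List-high nuclei are more numerous in young libraries, as given above, and this was seen before the fit was chosen.

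Among the newly formed genes, single calls were made for young against aged mice. Of 26 genes 17 passed the filter on low counts in members. These genes drew the line at 1%, and list-high nuclei were most numerous in young and fewest in AAV-B3GNT3 libraries. The values below come from the same nuclei and are not independent of those counts. The part of list-high nuclei in them was not tested. In young against aged mice 2 of the 17 passed, both higher in young, against 2.91% of all genes (2.05% higher in young). Estimates were above 0 for 16 of 17, with a median log2 of 0.87 (-0.01 over all genes). 9630013A20Rik was at 498, 552 and 125 CPM in young AAV-EGFP, 252, 129.7 and 232 CPM in aged AAV-EGFP, and 66.7, 0 and 37.7 CPM in aged AAV-B3GNT3 libraries (log2 2.18, edgeR adjusted p = 0.0068), with 1 young library inside the aged range. Cyfip2, an actin regulator of the WAVE complex, was at 247, 304 and 257 CPM, 106, 194 and 200.4 CPM, and 120.1, 82.9 and 68.5 CPM (log2 1.15, edgeR adjusted p = 0.016), the young libraries above all others. Tcf7l2 was at 1259, 1019.7 and 198 CPM, 759.7, 342 and 383 CPM, and 360.4, 92.1 and 202 CPM (log2 1.34, edgeR adjusted p = 0.070). With age 0 of 17 passed in edgeR (4 unadjusted, 0 in DESeq2; median -0.30) and with AAV-B3GNT3 0 of 17 (8 unadjusted, 1 in DESeq2; median -0.92, 16 of 17 below 0).

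The other lists were counted in the same way, with 2.91% of all genes called for young against aged mice and 2.05% called higher in young. Age and virus are mixed in this comparison, as given above. Committed precursor genes had 2 of 6 higher in young (Sox6 and the adhesion protein Dscam, log2 1.09), precursor genes 2 of 11 (Tnr and the proteoglycan enzyme Xylt1), cytoskeletal genes 4 of 19 (Cyfip2, Map1b, Map2 and Wasf1) and axon contact genes 5 of 16 (among them Cadm1, Cntn1, Nrcam and Tnr), with none lower. Cyfip2 was also counted among the newly formed genes, and Tnr in both the precursor and the axon contact list. Sox6 did not pass without the list-high nuclei, as given above. In the same comparison 7 of 7 tested excitatory markers (median log2 0.29), 3 of 3 inhibitory markers (0.54) and 4 of 5 astrocyte markers (1.23) had estimates above 0, of which Slc4a4 alone passed in edgeR. The 6 inhibitory markers summed to 2009 ± 629, 1705 ± 314 and 1077 ± 109 CPM in the members of the 3 groups (SD, n = 3). As given above, precursors held more of the inhibitory and astrocyte markers than members, and list-high nuclei more of the inhibitory markers than list-low nuclei. Neither the part of neuronal and astrocyte RNA nor that of list-high nuclei in these lists was tested. Of aged and reactive genes, Il33 and the nuclear RNA Neat1 were lower in young (2 of 7) and Il33 higher with age (1 of 7), with all 7 estimates above 0 in the age comparison and a median log2 of 0.98. Of 22 mature myelin genes 0 passed with age, treatment or in young against aged mice in edgeR (8, 2 and 8 unadjusted; 0, 0 and 1 in DESeq2). Mbp was between 2348 and 3459.5 CPM in all 9 libraries, and its groups overlapped. No cell cycle gene reached the filter.

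**Figure D4:**
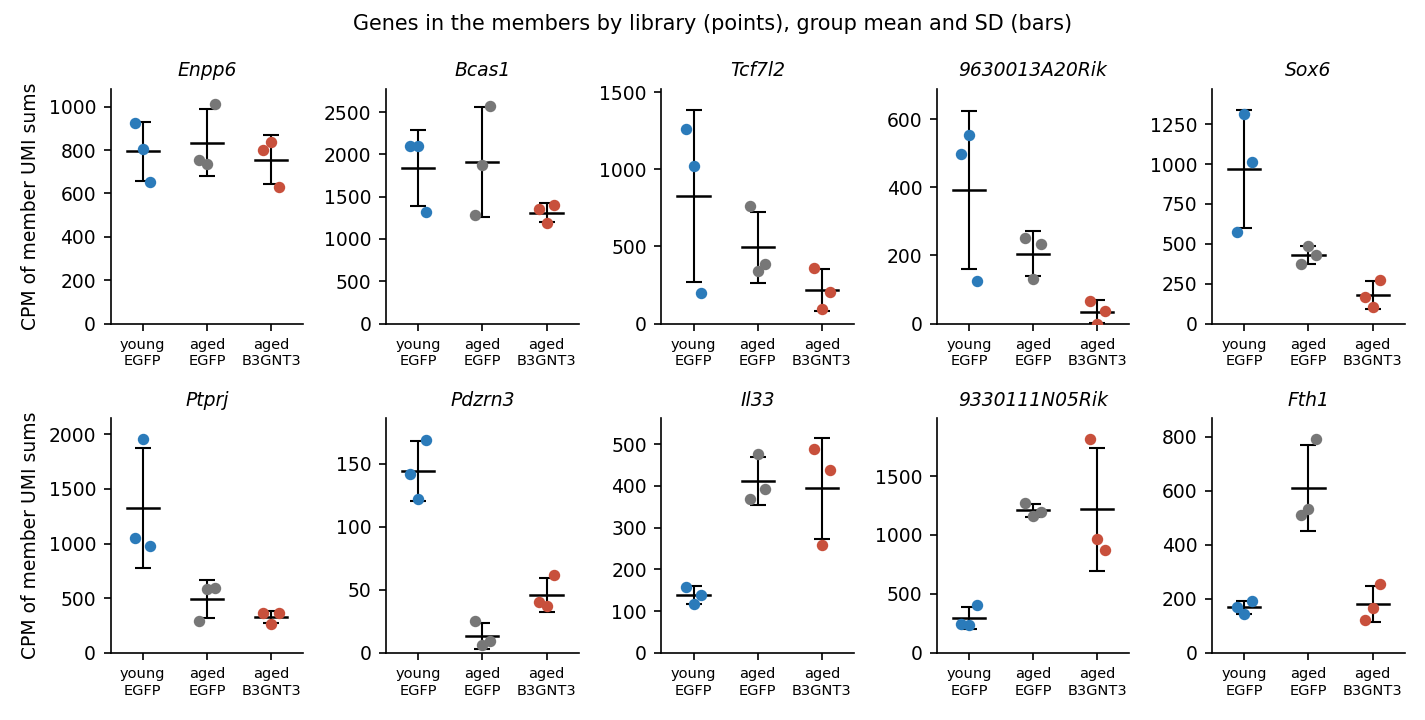
CPM of the members' summed UMIs on TMM-scaled totals for single genes, 1 point per library, with the group mean and SD as bars and with the vertical axis from 0 in every panel. Pdzrn3 and Sox6 are highest in the 3 young libraries, 9330111N05Rik and Il33 in the aged ones, and Fth1 in the 3 aged AAV-EGFP libraries.

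Beyond the members, the same stage genes were read in the sum of all lineage nuclei (14051 genes). With age 2602 genes passed (18.5%), of which 9.06% of all genes fell and 9.46% rose. Of 24 tested newly formed genes 6 fell and 1, Ddc, rose by log2 1.51. In the same sums 5 of 7 excitatory markers fell and 1 rose (median log2 -0.82), 3 of 8 astrocyte markers fell (-0.54), 2 of 6 inhibitory markers fell (-0.09), and 6 of 24 mature myelin genes rose (0.26), and the part of RNA from other cells was not tested. Rras2, a Ras-related GTPase, was at 30.8, 29.7 and 31.2 CPM in young and 17.7, 10.1 and 10.2 CPM in aged AAV-EGFP libraries (log2 -1.30, edgeR adjusted p = 0.0031). Cnksr3 was at 84.2, 87.7 and 67.1 CPM in young and 47.4, 31.7 and 41.7 CPM in aged AAV-EGFP libraries (log2 -0.99, edgeR adjusted p = 0.0042). Chn2, Prom1, Tmem163 and Tmem2 also fell, by 0.72, 1.90, 0.66 and 1.29 on the log2 scale. Of 13 committed precursor genes 1, Sox11, fell (log2 -0.98), which is near the share of all genes that fell. Without aged AAV-EGFP replicate 3, Ddc, Prom1, Tmem163 and Sox11 did not pass (edgeR adjusted p = 0.13, 0.078, 0.082 and 0.065). Nor did Ddc without young replicate 1 or 2 or aged AAV-EGFP replicate 2 (0.067 to 0.091) or in DESeq2 (0.057), Prom1 without aged replicate 2 (0.065), Tmem163 without young replicate 3 or aged replicate 2 (0.066 and 0.061), or Sox11 without young replicate 2 (0.098). With AAV-B3GNT3 928 genes passed (6.6%), and 1 of the 24, 9630013A20Rik, was lower, at 29.1, 24.4 and 30.0 CPM with AAV-EGFP and 15.6, 4.67 and 9.02 CPM with AAV-B3GNT3 (log2 -1.52, edgeR adjusted p = 0.035). Over all genes 4.71% were lower, so 1 of 24 lies near that share.

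Taking the 453 members out of the lineage sums left most of these changes. With age 2645 of 13963 genes passed (18.9%), and the 6 genes above fell again, joined by Frmd4a (log2 -0.68). With AAV-B3GNT3, 9630013A20Rik was at 19.2, 21.4 and 23.7 CPM against 14.4, 4.75 and 8.14 CPM without the members and no longer passed (log2 -1.26, edgeR adjusted p = 0.059). In the same fit, in which 984 genes passed (7.05%), 1 of the 24 newly formed genes was called: Rras2 was higher with AAV-B3GNT3, at 19.7, 23.3 and 18.3 CPM against 16.5, 9.87 and 10.3 CPM with AAV-EGFP (log2 0.76, edgeR adjusted p = 0.037). With the members included, Rras2 was at log2 0.68 (edgeR adjusted p = 0.067), and the median over the 24 genes without them was 0.08. In the sums with members, leaving out single libraries also took 9630013A20Rik past the threshold, with edgeR adjusted p of 0.070 to 0.14 without aged AAV-EGFP replicate 2 or 3 or aged AAV-B3GNT3 replicate 2 or 3, and it did not pass in DESeq2 (log2 -1.49, adjusted p = 0.057).

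Finally, the age change in the members was compared with that in the other mature nuclei of the same libraries, as an interaction with the library as a block. Of 4640 genes 49 differed (1.06%; 390 unadjusted), 46 with a higher change in members and 3 with a lower one. This result rested on which nuclei were counted: in alternatives chosen after seeing the data, 2 genes differed with likely doublets removed from both kinds of nuclei (268 unadjusted) and 0 with mature-cluster members only (234 unadjusted). Of the 46 genes none passed in either, and 35 and 22 kept their direction. Over all members, of the 46, 45 had a negative estimate in mature nuclei (median log2 -1.21) and 37 a positive one in members (median 0.44). The AMPA receptor subunit Gria1 changed by log2 -1.22 in mature nuclei and 0.69 in members (difference 1.83 ± 0.21, edgeR adjusted p = 0.00012), and the splicing factor Rbfox1 by -1.38 and 0.51. With likely doublets removed the member estimates were -0.44 for Gria1 and -0.76 for Rbfox1, and with mature-cluster members only -1.09 and -1.34. Il33 was positive in both, at log2 0.52 in mature nuclei and 1.56 in members. The rule asked for 0 UMIs of Slc17a7, Gad1 and Gad2 in members only. The 7 other excitatory markers summed to 3017 ± 194, 1602 ± 369 and 2470.4 ± 423 CPM in the mature nuclei of the young AAV-EGFP mice, the aged mice with AAV-EGFP and those with AAV-B3GNT3, and to 2596 ± 737, 2249 ± 478 and 1693 ± 187 CPM in members (SD, n = 3), and their part in the difference was not tested. The count was 19 without young AAV-EGFP replicate 1, and 32 and 30 without aged AAV-EGFP replicates 1 and 3. For AAV-B3GNT3 against AAV-EGFP in aged mice, tested after this was seen and with the same aged AAV-EGFP libraries, 157 genes differed (3.38%), against 18 with likely doublets removed and 0 with mature-cluster members only (207 unadjusted).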

How the data were processed

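Per the labels and the study's methods, nuclei were sequenced with 10x 3′ chemistry (v3.1) and aligned to mm10 with Cell Ranger (4.0.0 in the submitters' notes, 7.2.0 in the matrix header). The deposited files of the authors hold raw UMI counts per gene and nucleus; ambient RNA correction and doublet removal are not in them. Members and gene lists were chosen with earlier results of these data known. Of 77823 barcodes, 2923 over the upper gene limit and 5 over the mitochondrial limit were left out. The other nuclei were clustered with leidenalg 0.10.2 (Leiden, resolution 0.3), and likely doublets were marked by simulation but kept.

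UMIs were summed per library, 1 library per mouse, and tested with edgeR 4.0.16 in R 4.3.3 (quasi-likelihood, TMM, minimum count 10, threshold 0.05, all 9 libraries in 1 fit). On simulated data a larger share of calls were unchanged genes than the threshold allows in the member and lineage fits, and the member fit missed most of the smaller changes. DESeq2 1.42.0, other filters, doublet removal, UMI minimums and left-out libraries were alternatives. Binomial intervals cover counting error only. The genes named were up to 10 per direction with the largest change among called genes that did not overlap between groups and had a mean count of at least 10, the 20 with the highest ratio of members to both neighbours, and called or leading genes of the lists. The counting strand is not given in the sources used here, and whether reads counted for 9630013A20Rik came from an overlapping gene was not checked.

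Member numbers per library (32 to 83) limit the precision.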

Additional observations from a re-analysis of the deposited data

Results flagged for a closer look

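With all members counted, the age change of 49 genes differed between the members and the other mature nuclei of the same libraries (edgeR interaction over 4640 genes, adjusted p under 0.05). Besides Gria1 and Rbfox1, these included the synaptic genes Nrxn3 (log2 -1.22 in mature nuclei and -0.04 in members), Rims1 (-1.25 and 0.23) and Frmpd4 (-1.14 and 0.59). With likely doublets removed 2 genes differed, and with mature-cluster members only 0 (234 unadjusted). In the latter, Nrxn3, Rims1 and Frmpd4 were at log2 -1.32, -0.90 and -1.86 in members.

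The same test for AAV-B3GNT3 against AAV-EGFP, run after the first was seen and sharing the aged AAV-EGFP libraries with it, gave 157 genes (3.38%), 153 with a lower change in members. Of the 153, 151 had a positive estimate in mature nuclei (median log2 0.75) and 152 a negative one in members (median -0.94). Rbfox1 changed by log2 1.09 in mature nuclei and -1.21 in members, and Gria1 by 1.06 and -1.06. With likely doublets removed 18 genes differed, 17 of the 153 among them, and the median member estimate of the 153 was -0.13. With mature-cluster members only 0 differed (207 unadjusted), 119 of the 153 had a positive member estimate (median 0.63), and Frmpd4 and Pde4d, called above, were at log2 1.28 and 0.29 in members. The differences thus depended on which nuclei were counted, and the cause was not tested. The excitatory neuron markers outside the rule, given in the report, rose with AAV-B3GNT3 in mature nuclei and fell in members. With age their sum fell in both kinds of nuclei. The inhibitory markers outside the rule fell with AAV-B3GNT3 in both, from 2446 to 2055 CPM in mature nuclei and from 1705 to 1077 CPM in members. Syt1, itself of the excitatory markers, was called in both interactions. The part of neuronal RNA was not tested.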

How the results depend on the processing

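The tests of the member share over 3 groups and of young against all aged did not pass in any alternative run. Those of 3 against 3 libraries cannot go below p = 0.1 (exact permutation), or 0.25 with a replicate block, and say nothing of stability. The difference of aged from young turned to 0.125 points with nuclei thinned to 2000 UMIs. The difference of AAV-B3GNT3 from AAV-EGFP turned to 0.00602 points over all nuclei, 0.0196 for mature-cluster members over that cluster (added after seeing the data), 0.0373 without aged AAV-EGFP replicate 1 and 0.155 without aged AAV-B3GNT3 replicate 2. Members per 100 precursors turned to -2.70 without young replicate 1. Leaving out single libraries gave F of 0.380 to 2.47, differences of -0.756 to -0.225 (age), -0.458 to 0.155 (AAV-B3GNT3) and 0.304 to 0.817 (young against all aged), and -2.70 to 9.79 per 100 precursors.

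Counts of genes in members (22 with age, 4 with AAV-B3GNT3, 135 young against aged) became 116 (51 higher, 65 lower), 97 and 293 with no filter on low counts. With likely doublets removed they were 103 with age and 207 for young. With at least 1 UMI of Enpp6 and Bcas1 they were 94 with age and 2 with AAV-B3GNT3. In 2 alternatives added after seeing the data they were 14 with age and 10 for young without list-high nuclei, and 117, 24 and 79 with mature-cluster members only. DESeq2 gave 33 with AAV-B3GNT3. With no filter the lineage count with AAV-B3GNT3 became 1797 and the interaction counts 107 (age) and 258 (AAV-B3GNT3). The interaction counts of 49 and 157 became 2 and 18 with likely doublets removed and 0 and 0 with mature-cluster members only (234 and 207 unadjusted), all added after seeing the data. Frmpd4 turned to log2 0.60 with doublets removed and 1.28 with mature-cluster members only, and Pde4d to 0.29 with the latter. The causes were not tested. Leaving out single libraries gave 2 to 49 genes with age, 0 to 36 with AAV-B3GNT3 and 10 to 224 for young in members, 989 to 3538 and 139 to 1246 in the lineage, 1053 to 3570 in the lineage without members, and 19 to 58 (age) and 79 to 132 (AAV-B3GNT3) for the interaction.

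Replicate numbers are shared between groups, but no label says what they mark, and the correlations of same-numbered libraries' deviations over genes lay between -0.0698 and 0.0990 in members and between -0.117 and 0.278 in the lineage, so not every pair was over 0.1 and they were not taken as pairs. Over the 3 numbers, the deviations of the member share correlated at 0.774 (young with aged AAV-EGFP), 0.691 (aged groups) and 0.0777 (young with aged AAV-B3GNT3), a hint from the data and not the design. With a replicate block, members gave 17 genes with age, 11 with AAV-B3GNT3 and 111 for young. For single named genes, 552 alternative values kept the direction and the call, 165 kept the direction only and 3 turned. 9330111N05Rik, Pdzrn3, D630045J12Rik and, in young against aged, Slc4a4 kept their call in every alternative that tested them; Pdzrn3 and Slc4a4 fell below the filter with likely doublets removed or mature-cluster members only, D630045J12Rik was not tested without list-high nuclei or with mature-cluster members only, and Pdzrn3 had no adjusted p in DESeq2 for young against aged.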
